A study of Mus musculus with 12 samples.

Results

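The genes described here are the Wnt ligands, their receptors and the main extracellular and intracellular regulators of the pathway, in inner hair cells (IHCs) and outer hair cells (OHCs) of the newborn mouse cochlea. Members were chosen by gene name. They were all protein-coding genes in the count files called Wnt, Fzd, Sfrp, Dkk or Rspo with a number, except Fzd3 and Fzd6, together with Frzb, Lgr4, Lgr5, Lgr6, Lrp5, Lrp6, Axin1, Axin2, Znrf3, Rnf43, Lef1, Tcf7, Tcf7l1, Tcf7l2 and Apc. This rule gave 54 of the 55416 genes counted. By role they were 19 Wnt ligands, 7 R-spondins and R-spondin receptors, 10 Frizzled and Lrp receptors, 9 secreted inhibitors, 2 membrane E3 ligases, 3 members of the destruction complex and 4 nuclear factors.

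RNA was sequenced from 6 IHC pools and 6 OHC pools, sorted by fluorescence from the organ of Corti at postnatal day 0 (P0), all with the genotype labelled WT. Sorted IHCs carried the hair cell reporter Atoh1-GFP and no red signal. Sorted OHCs carried Atoh1-GFP and also the red reporter R26-TdTomato, which is switched on by Insm1-GFP-Cre, a recombinase made from the Insm1 locus, so that the OHC group is defined by cells in which this locus has been active. Each pool combined cells of several newborn mice of both sexes. The comparison asks which parts of the Wnt pathway are present at different levels in the 2 types of sensory cell.

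Wnt ligands are lipid-modified secreted proteins that bind Frizzled receptors and the co-receptors Lrp5 and Lrp6. In the canonical branch this stops the destruction complex of Axin, Apc and their partner kinases from degrading β-catenin, which then joins TCF/LEF factors on DNA. Znrf3 and Rnf43 remove Frizzled receptors from the membrane, and R-spondins bound to Lgr receptors clear Znrf3 and Rnf43. In the cochlea the pathway is known for its part in the growth of prosensory cells, for Lgr5 as a marker of supporting cells able to form hair cells, and for the orientation of hair bundles.

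The DNA near the start is shown for 4 of the 5 members that passed the test below. Each of the 4 holds a motif letter pattern that a reader may look for in a Wnt or hair cell promoter. For Wnt7b, the other member that passed, no promoter sequence was at hand, so its motifs are not known here. Sequences are from RefSeq on build GRCm38.p6, 5′ to 3′ on the strand of the gene. Capitals mark the E-box CAGCTG, a letter pattern read by basic helix-loop-helix factors such as Atoh1, or AACAAAG, the reverse complement of CTTTGTT, one form of the TCF/LEF motif.
Lgr6: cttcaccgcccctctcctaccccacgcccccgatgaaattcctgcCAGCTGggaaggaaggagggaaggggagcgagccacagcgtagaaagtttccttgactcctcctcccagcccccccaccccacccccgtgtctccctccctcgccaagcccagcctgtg
Fzd7: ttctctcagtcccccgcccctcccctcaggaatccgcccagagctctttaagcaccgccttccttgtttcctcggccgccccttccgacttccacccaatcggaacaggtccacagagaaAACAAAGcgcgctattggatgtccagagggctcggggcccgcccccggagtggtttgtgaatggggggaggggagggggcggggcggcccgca
Wnt9a: gcgggccgagccCAGCTGgccggcgccccg
Frzb: ggtgggaaggcgCAGCTGcgagccaaggcg
The Lgr6 stretch is chr1:135105363-135105526 on the minus strand and the Fzd7 stretch chr1:59481897-59482109 on the plus strand, both upstream of the RefSeq start and of the exons of these genes. The 30 bases shown for Wnt9a are chr11:59306844-59306873 on the plus strand and those for Frzb chr2:80447396-80447425 on the minus strand, at the start of the gene. Both strands were searched in the 250 bases before the start. The table held a sequence for 36 members, in 45 windows, and CAGCTG was in 6 of them (13.3%), against 13.0% of the 32851 windows of all genes. CTTTGTT was in 3 member windows (6.67%), those of Dkk1, Fzd7 and Tcf7l2, against 5.03% of all windows, and CTTTGAT, the other form searched, in 2 (4.44%), those of Wnt11 and Wnt5b, against 3.21%. The member windows with the E-box were those of Frzb, Fzd10, Lef1, Lgr6, Tcf7 and Wnt9a. These shares are close to those of promoters at large, and a match is a description of letters only.

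Counts on genes ranged from 31490204 to 44017309 per IHC library and from 29564827 to 39121988 per OHC library. Ribosomal RNA took 21.5% to 56.9% of them in IHC libraries and 23.4% to 36.4% in OHC libraries, with the highest share in IHC replicate 1. Markers separated as labelled: 4 of 4 IHC markers passed the test as higher in IHCs and 3 of 4 OHC markers as higher in OHCs. Insm1, one of these 3, also drives the reporter used to sort OHCs, so its difference was set by the sort. From these same data the paper lists the 4 IHC markers as IHC-enriched, and Neurod6 and Bcl11b, the other OHC markers called, as OHC-enriched. The calls of these markers therefore check the labels only. The OHC marker not called was Ikzf2 (log2 fold change, OHC over IHC, -0.40, SE 0.91, adjusted p = 0.840, edgeR). Genes used as markers of other cells were also detected. The summed level of 9 supporting cell markers was 393 to 887 CPM (counts scaled to library size) in IHC libraries and 175 to 405 in OHC libraries, that of 5 markers of the greater epithelial ridge, the tissue medial to the hair cells, 597 to 1144 and 81.2 to 421, and that of 6 endothelial markers 0.218 to 13.0 and 13.4 to 153. One library stood out in a supporting cell gene: Fgfr3 was at 73.3 CPM in IHC replicate 6, against 67.8 to 77.8 in OHC libraries and a median of 5.88 over the 6 IHC libraries. Most of the ridge sum was Tecta, at 576 to 1086 CPM in IHC libraries and 52.2 to 403 in OHC libraries. Epyc, another ridge marker, had at most 3 counts in IHC libraries and 553 in OHC libraries. By the paper, Fgf10 of the same list is made by IHCs as well as some other cochlear cells. Whether hair cells or other cells made these RNAs was not tested. In pools of cells, fewer cells of one type and less RNA per cell cannot be told apart.

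Of the 54 members, 30 had enough reads to be tested, and the plot of CPM by library shows them. CPM scales the reads of a gene to the size of its library, normalised by TMM. Among genes called higher in one cell type, the IHC side held Wnt7b, Wnt9a, Lgr6 and Fzd7, and the OHC side Frzb. These 5 were 16.7% of the members tested, while the quasi-likelihood test of edgeR, adjusted by Benjamini-Hochberg, called 6.26% of all 13269 genes tested, 3.81% as higher in IHCs and 2.44% as higher in OHCs. An unadjusted p under 0.05 was found for 13 of the 30, against 21.8% of all genes. The libraries of the 2 cell types did not overlap for Fzd7 and Frzb, against 4.6% of all genes (2.37% with IHCs higher and 2.22% with OHCs higher). The log2 fold change (OHC over IHC) was negative for 19 members and positive for 11, with a median of -0.31 against -0.04 over all genes. Among the called members, Frzb passed the filter on its OHC libraries alone, and Wnt9a and Lgr6 would not have passed it without their IHC libraries. Each is high in the cell type that carried it past the filter, so these counts over the members tested are a description. DESeq2 called 11 of the 32 members it tested, against 17.3% of its genes, and edgeR's exact test 8 of the 30, against 9.57%.

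**Figure D1:**
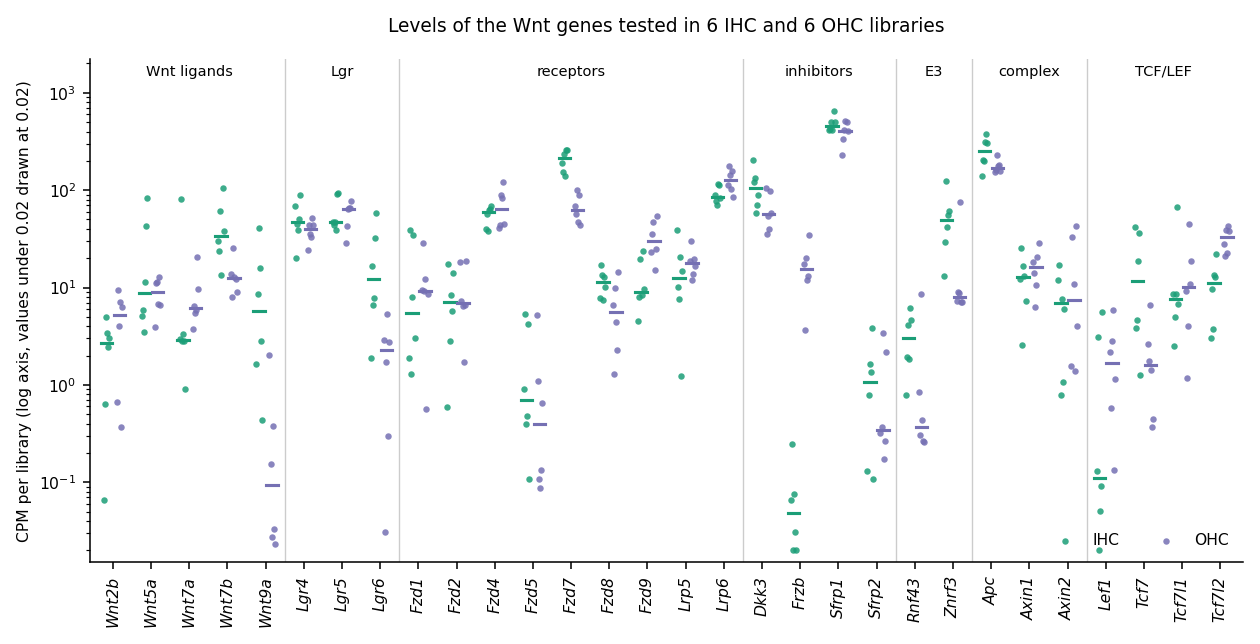
Level of each tested Wnt gene in CPM (log axis) in the 6 IHC libraries (green) and the 6 OHC libraries (purple), with a line at each median and the genes grouped by role. Sfrp1 lies highest, between 229 and 652 CPM, Frzb is at most 0.244 CPM in IHC libraries and at least 3.63 CPM in OHC libraries, and the highest library is at least 10 times the lowest for 15 genes in IHCs and 14 in OHCs.

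The spread within a cell type was wide. The highest library was at least 10 times the lowest for 15 of the 30 members in IHCs (50.0%) and for 14 in OHCs (46.7%), against 37.9% and 31.6% of all genes tested. Each value below is therefore given with its libraries.

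**Figure D2:**
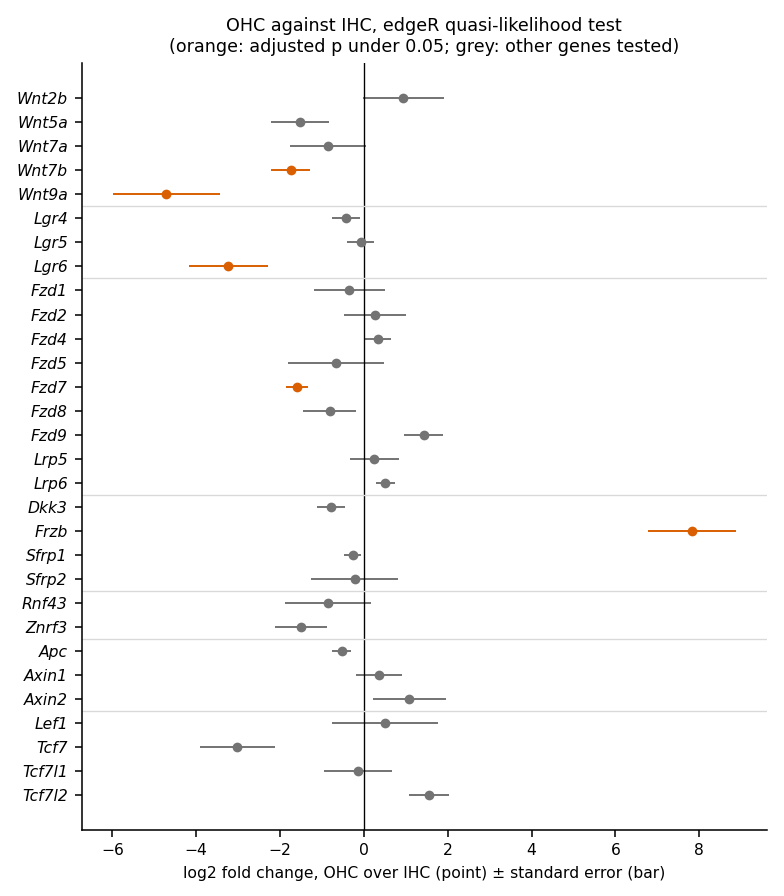
Log2 fold change of OHC over IHC (points) with its standard error (bars) for the 30 members tested, grouped by role from ligands (top) to nuclear factors (bottom). Orange marks an adjusted p under 0.05: Wnt7b, Wnt9a, Lgr6 and Fzd7 on the IHC side and Frzb, at 7.83, on the OHC side.

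Of the 19 Wnt ligands 5 were tested, and 2 of them, Wnt7b and Wnt9a, were enriched in IHCs. Wnt9a, a ligand also used in blood stem cell and joint development, lies at chr11:59197567-59224378 on the plus strand (GRCm39). In IHC replicates 1 to 6 it was at 1.64, 8.55, 41.1, 15.8, 2.85 and 0.436 CPM. In OHC replicates 1 to 6 the values were 2.03, 0.152, 0.0271, 0.378, 0.0334 and 0.0234 CPM. Replicates 2, 3, 4 and 5 of the IHCs lay above every OHC library, while IHC replicates 1 and 6 lay below OHC replicate 1, and the count in OHC replicates 2 to 6 was at most 13. The log2 fold change was -4.71 (SE 1.28) with an adjusted p of 0.0321 by edgeR's quasi-likelihood test. Wnt9a kept its call in 6 of the 12 fits with 1 library left out. The adjusted p was 0.107 without IHC replicate 3. It was 0.0729, 0.0622, 0.0668, 0.0595 and 0.0639 without OHC replicates 2, 3, 4, 5 and 6, respectively, and 0.00788 without OHC replicate 1. The log2 fold change was -3.71 without IHC replicate 3 and -6.56 without OHC replicate 1. Wnt3a lies 15982 bases from Wnt9a, on the opposite strand, and had 0 counts in all 12 libraries.

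Wnt7b, which acts in lung, kidney and brain vessel development, lies at chr15:85419638-85466674 on the minus strand. It was at 29.96, 23.6, 61.2, 13.6, 105 and 38.2 CPM in IHC replicates 1 to 6. It was lower in OHC replicates 1 to 6, at 13.6, 7.99, 25.2, 12.9, 12.3 and 8.99 CPM. The highest IHC library was replicate 5 and the highest OHC library replicate 3, which lay above IHC replicates 2 and 4. Wnt7b was 3.35-fold higher in IHCs (log2 fold change -1.74, SE 0.47, adjusted p = 0.0301, edgeR). The adjusted p was 0.104 without IHC replicate 5, 0.0608 without IHC replicate 3, and 0.0583, 0.0710, 0.0597, 0.0552 and 0.0704 without OHC replicates 1, 2, 4, 5 and 6.

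The other ligands tested did not pass. Wnt5a, the best known ligand of the noncanonical branch that orients hair bundles, was at 3.48 to 82.3 CPM in IHC libraries and 3.92 to 12.7 in OHC libraries, with medians of 8.70 and 8.998. Its high IHC values came from replicates 5 and 6, at 42.8 and 82.3 CPM, and the medians of the cell types were close (log2 fold change -1.52, SE 0.70, adjusted p = 0.207, edgeR). Without IHC replicate 6 the log2 fold change of Wnt5a was -0.65. Part of its exons, 4.46% of the bases, is shared with Gm2670 on the opposite strand. Wnt7a, a ligand close to Wnt7b in sequence, showed a different distribution. It was at 80.4 CPM in IHC replicate 2 and at 0.899 to 3.33 CPM in the other 5 IHC libraries, all of these below the lowest OHC library, at 3.75 CPM, while the highest OHC library was at 20.5. With all libraries the log2 fold change of Wnt7a was -0.85 (SE 0.91, adjusted p = 0.6248), and without IHC replicate 2 its sign turned, to 1.75 (SE 0.76, adjusted p = 0.178, edgeR). Wnt2b was at 0.0654 to 5.03 CPM in IHC libraries and 0.367 to 9.51 in OHC libraries (log2 fold change 0.94, SE 0.97, adjusted p = 0.614).

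Levels of different ligands can be compared only per length, as TPM (transcripts scaled to a common total, with all reads on genes in the total, so that leaving out ribosomal RNA would raise every value). In IHCs Wnt7b was at 22.8 ± 18.6 TPM (mean ± SD, n = 6), Wnt7a at 10.4 ± 20.9, Wnt5a at 9.89 ± 14.8, Wnt9a at 8.08 ± 11.5 and Wnt2b at 1.29 ± 1.03. No neighbours in this order differ beyond their spread. In OHCs Wnt7b was at 8.29 ± 4.76 TPM, Wnt7a at 7.25 ± 3.41, Wnt5a at 3.24 ± 1.22, Wnt2b at 2.60 ± 2.005 and Wnt9a at 0.404 ± 0.764. The first ligand by TPM within a library was Wnt7b in 3 of 6 IHC libraries and Wnt5a, Wnt7a or Wnt9a in 1 each, and in OHC libraries it was Wnt7a in 3 and Wnt7b in 3. Wnt9a made up 0.597% to 42.5% of the ligand TPM in IHC libraries and 0.0717% to 10.1% in OHC libraries.

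The other 14 ligands had too few reads for the test. Wnt3a and Wnt8a had no count in any library, so they were not detectable at this depth. Wnt2, Wnt5b, Wnt6, Wnt8b, Wnt9b, Wnt10a and Wnt16 had at most 2 counts in any library, Wnt1 at most 6 and Wnt10b at most 8. Wnt3, the ligand next to Wnt9b, had 0, 4, 4, 18, 3 and 1 counts in IHC replicates 1 to 6 and 10, 7, 56, 84, 28 and 10 in OHC replicates 1 to 6. Wnt4 reached 68 counts in OHC replicate 3 and 12 in OHC replicate 1, with at most 1 elsewhere. Wnt11 had 44 counts in IHC replicate 2 and at most 2 in any other library.

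Of the R-spondins and their receptors, Lgr6 was enriched in IHCs, and Lgr4 and Lgr5 were not called. Lgr6, an R-spondin receptor and relative of the stem cell marker Lgr5, lies at chr1:134911039-135033100 on the minus strand (GRCm39). In the stretch printed above, CAGCTG lies at bases -205 to -200 from the RefSeq start. It was at 1.90, 16.6, 6.67, 7.78, 32.0 and 58.9 CPM in IHC replicates 1 to 6. The OHC replicates 1 to 6 were at 2.91, 0.0305, 1.74, 5.32, 0.300 and 2.79 CPM. All IHC libraries except replicate 1 lay above the highest OHC library, and the highest were replicates 6 and 5. Lgr6 was 9.45-fold higher in IHCs (log2 fold change -3.24, SE 0.94, adjusted p = 0.0447, edgeR). The adjusted p was 0.123 without IHC replicate 6, which also held the high Fgfr3, 0.0806 and 0.0517 without IHC replicates 5 and 2, and 0.0746, 0.0572, 0.0854, 0.0770 and 0.0782 without OHC replicates 1, 2, 3, 5 and 6.

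Lgr5 was at 38.6 to 94.1 CPM in IHC libraries and 28.9 to 76.6 in OHC libraries, with medians of 47.1 and 64.4, and its log2 fold change was -0.08 (SE 0.31, adjusted p = 0.912, edgeR). Lgr4, the most broadly expressed of the 3 receptors, was at 20.0 to 89.8 CPM in IHC libraries and 24.3 to 51.6 in OHC libraries, with medians of 47.4 and 39.5 (log2 fold change -0.43, SE 0.34, adjusted p = 0.496). Per length, Lgr4 and Lgr5 were close to each other, at 17.97 ± 14.3 and 15.6 ± 11.1 TPM in IHCs and 15.4 ± 2.09 and 16.6 ± 4.68 TPM in OHCs (SD, n = 6). Lgr6 was at 8.57 ± 11.1 and 0.943 ± 0.840 TPM. Within a library Lgr6 made up 1.81% to 27.2% of the TPM of the 3 receptors in IHCs and 0.0412% to 6.25% in OHCs, so that these shares overlapped too.

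R-spondins, the ligands of the Lgr receptors, were nearly without reads. Rspo1 and Rspo3 had at most 1 count in any library. Rspo2 had 59 and 80 counts in OHC replicates 3 and 4, at most 5 in the other OHC libraries and at most 1 in IHC libraries, and Rspo4 had 69 counts in OHC replicate 3 and at most 2 elsewhere. OHC replicate 3 was also the library with the most counts of Wnt4 and Fzd10, and the one with the highest endothelial marker sum, 153 CPM. Whether these move together was not tested.

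The receptor with the clearest difference was Fzd7, a Frizzled receptor also known from stem cells and early embryos, at chr1:59521269-59534685 on the plus strand. It was at 191, 154, 236, 139, 261 and 259 CPM in IHC replicates 1 to 6. Its values in OHC replicates 1 to 6 were 69.2, 56.8, 101, 47.3, 90.1 and 44.3 CPM. Every IHC library lay above every OHC library, and the lowest IHC value, 139, was above the highest OHC value, 101. Fzd7 was 3.03-fold higher in IHCs (log2 fold change -1.60, SE 0.26, adjusted p = 0.000685, edgeR), it passed in all 12 fits with 1 library left out, and the highest adjusted p among them was 0.00310, without OHC replicate 2. Fzd7 shares 396 bases, 6.75% of its exons, with the antisense gene Gm26813, which had at most 542 counts, and the strand setting of the counting is not given in the sources used here.

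Fzd9, a Frizzled receptor of the developing brain, was at 4.51 to 24.0 CPM in IHC libraries and 14.97 to 53.6 in OHC libraries, with medians of 9.01 and 29.9. The OHC libraries tended higher, with IHC replicates 3 and 5 inside their range, and the log2 fold change of 1.43 (SE 0.47) missed the threshold with an adjusted p of 0.0768 by edgeR's quasi-likelihood test. It was 0.0431 without IHC replicate 5. Of 19 alternative fits, 3 called Fzd9, among them DESeq2 with all libraries (adjusted p = 0.0132). Fzd4, the receptor of the ligand Norrin as well as of Wnts, was at 37.7 to 68.6 CPM in IHC libraries and 40.6 to 120 in OHC libraries (log2 fold change 0.34, SE 0.31, adjusted p = 0.557).

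None of the other Frizzled receptors in the set passed the test. Fzd1 was at 1.31 to 38.9 CPM in IHC libraries and 0.567 to 28.8 in OHC libraries (adjusted p = 0.849, edgeR). Fzd2 was at 0.589 to 17.4 and 1.72 to 18.8 (adjusted p = 0.876), Fzd8 at 7.53 to 17.1 and 1.28 to 14.5 (adjusted p = 0.485) and Fzd5 at 0.109 to 5.40 and 0.0872 to 5.22 (adjusted p = 0.781). Fzd10 had 93 counts in OHC replicate 3 and at most 5 in any other library.

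As shares of the summed TPM of the 8 Fzd genes in the set within each library, the receptors were distributed differently in the 2 cell types, as the plot of shares shows. Fzd3 and Fzd6, left out by the naming rule, are not in this total. Fzd7 made up 47.0% to 76.6% in IHC libraries, where it was first in 6 of 6, and 15.99% to 33.4% in OHC libraries, where it was first in 1. Fzd9 made up 4.64% to 14.7% in IHC libraries and 21.2% to 49.6% in OHC libraries, where it was first in 3, and Fzd4 was first in the other 2. Neither Fzd7 nor Fzd9 shares overlapped between the cell types, while those of Fzd4, 9.56% to 21.7% and 13.9% to 39.0%, did. Shares of a total are not independent, and a lower Fzd7 raises the share of every other receptor.

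**Figure D3:**
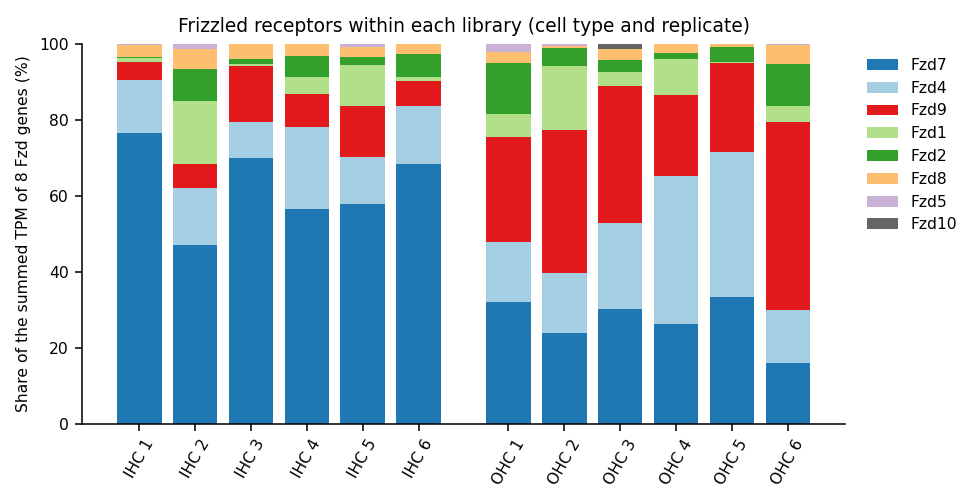
Share of each Frizzled gene in the summed TPM of the 8 Fzd genes in the set, without Fzd3 and Fzd6 (y axis, %), in each IHC and OHC library (x axis). Fzd7 (dark blue) takes 47.0% or more of every IHC bar and 33.4% or less of every OHC bar, and Fzd9 (red) 14.7% or less of every IHC bar and 21.2% or more of every OHC bar.

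The co-receptor Lrp6 was at 70.4 to 116 CPM in IHC libraries and 85.9 to 179 in OHC libraries, with medians of 86.0 and 128. The ranges overlapped, and the log2 fold change was 0.51 (SE 0.23, adjusted p = 0.205, edgeR). Lrp5, its paralogue, was lower, at 1.23 to 39.1 CPM in IHC libraries and 11.9 to 30.1 in OHC libraries (log2 fold change 0.24, SE 0.58, adjusted p = 0.847).

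Among secreted inhibitors, the OHC-enriched member was Frzb, also called sFRP3, which binds Wnts outside the cell and lies at chr2:80242313-80278304 on the minus strand (GRCm39). In IHC replicates 1 to 6 it was at 0.0654, 0.244, 0, 0.0756, 0.0306 and 0 CPM. The OHC values, again from replicate 1 to 6, were 17.4, 3.63, 20.2, 12.01, 13.3 and 34.7 CPM. All OHC libraries lay far above all IHC libraries, which had at most 10 counts, while OHC libraries had 119 to 1481. The log2 fold change was 7.83 (SE 1.05, adjusted p = 0.000101, edgeR). As the IHC counts are close to 0, the size of the fold change is uncertain, and it ranged from 7.49 to 8.90 over the 12 fits with 1 library left out, all of which called the gene. The OHC library with the least Frzb, replicate 2, also had the lowest endothelial marker sum, 13.4 CPM, but OHC replicate 6, with the most Frzb, had an endothelial sum of 58.5, and OHC replicate 3, with the highest sum, had 20.2 CPM of Frzb. Of the 6 endothelial markers, 5 passed the test as higher in OHCs. Their part in the Frzb difference was not tested.

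Sfrp1, a soluble Frizzled-related protein, had the highest level per length of all members in each of the 12 libraries. It was at 410 to 652 CPM in IHC libraries and 229 to 519 in OHC libraries, with medians of 459 and 408, and at 254 ± 114 and 247 ± 57.2 TPM (SD, n = 6). The cell types overlapped, with IHC replicate 5 highest and OHC replicate 1 lowest (log2 fold change -0.27, SE 0.21, adjusted p = 0.482, edgeR). Within a library it made up 37.5% to 42.9% of the TPM of all members in IHCs and 32.8% to 51.8% in OHCs. Dkk3, a Dickkopf relative whose effect on Wnt signalling is less settled, was next among inhibitors in all IHC libraries, at 58.8 to 204 CPM against 35.6 to 106 in OHC libraries, with medians of 106 and 56.3 (log2 fold change -0.78, SE 0.33, adjusted p = 0.173, edgeR). Sfrp2 was at 0.109 to 3.83 and 0.174 to 3.39 CPM.

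The other 5 inhibitors were not tested. Dkk1, a Dickkopf protein that blocks Lrp5 and Lrp6, had 201 counts in OHC replicate 6 and at most 7 in any other library. Dkk4 had 38 counts in OHC replicate 1 and at most 2 elsewhere. Dkk2, Sfrp4 and Sfrp5 had at most 1, 2 and 4 counts in any library.

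Znrf3 and Rnf43, the membrane E3 ligases, tended to be higher in IHC libraries without passing the test. Znrf3 was at 13.1, 29.5, 124, 41.6, 56.1 and 60.7 CPM in IHC replicates 1 to 6. In the OHCs it was at 7.31, 8.99, 8.85, 75.4, 7.07 and 7.16 CPM. All OHC libraries but replicate 4 lay below every IHC library, and OHC replicate 4 lay above all IHC libraries but replicate 3. With it the log2 fold change was -1.50 (SE 0.63, adjusted p = 0.167, edgeR), and without it -2.78 with an adjusted p of 0.00235. Rnf43 was at 0.785 to 6.13 CPM in IHC libraries (median 3.02), and at 0.258 to 0.844 CPM in OHC libraries other than replicate 3, which was at 8.66. Its log2 fold change was -0.85 (SE 1.03, adjusted p = 0.674) with all libraries and -2.93 (adjusted p = 0.0947, edgeR) without OHC replicate 3. For each ligase 1 OHC library lay far above the others of its cell type.

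No member of the destruction complex passed the test. Apc, its scaffold, was at 139 to 374 CPM in IHC libraries and 155 to 227 in OHC libraries, with medians of 254 and 169 and a log2 fold change of -0.53 (SE 0.23, adjusted p = 0.185, edgeR), and without IHC replicate 1, the library with the most ribosomal RNA, the adjusted p was 0.0494. Axin1 was at 2.56 to 25.2 and 6.27 to 28.4 CPM (log2 fold change 0.35, SE 0.55, adjusted p = 0.752).

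Axin2, a scaffold that is itself switched on by β-catenin and is used as a readout of canonical signalling, lies at chr11:108811169-108841609 on the plus strand. It was at 11.97, 16.9, 0.785, 7.66, 1.07 and 6.08 CPM in IHC replicates 1 to 6. OHC replicates 1 to 6 were at 1.55, 33.02, 10.8, 1.40, 43.0 and 4.05 CPM. Within each cell type the libraries spread over more than 10-fold, with IHC replicates 3 and 5 and OHC replicates 1 and 4 near the bottom. The log2 fold change was 1.08 (SE 0.87, adjusted p = 0.505, edgeR), and it stayed between 0.45 and 1.504 when each library was left out in turn, without a call.

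The nuclear factors gave 2 members near the threshold, on opposite sides. Tcf7, known as TCF-1 from T cells, was at 41.9, 3.86, 4.63, 18.7, 36.5 and 1.25 CPM in IHC replicates 1 to 6. Across OHC replicates 1 to 6 it was at 2.61, 1.77, 6.54, 1.42, 0.367 and 0.445 CPM. IHC replicates 1, 4 and 5 lay above every OHC library, and IHC replicates 2, 3 and 6 lay within the OHC range (log2 fold change -3.02, SE 0.90, adjusted p = 0.0508, edgeR). The adjusted p was 0.0371, 0.0438, 0.0271 and 0.0297 without IHC replicates 2, 3 and 6 and OHC replicate 3, respectively, and 0.111 and 0.109 without IHC replicates 1 and 5. With all libraries Tcf7 was called by DESeq2 (adjusted p = 0.00408) and edgeR's exact test (0.0107), and by the quasi-likelihood test with no filter (0.0285), with at least 10 counts in every library (0.0364) and with ribosomal RNA genes left out (0.0499).

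Tcf7l2, known as TCF-4, was at 3.01, 9.62, 3.77, 13.5, 12.7 and 22.2 CPM in IHC replicates 1 to 6. The OHC replicates had 27.8, 21.3, 38.6, 22.5, 42.4 and 38.5 CPM, in the same order. IHC replicate 6 alone overlapped the OHC libraries, and it was just above the lowest of them (log2 fold change 1.56, SE 0.48, adjusted p = 0.0600, edgeR). Without it the adjusted p was 0.0263. Of 19 alternative fits, 4 called Tcf7l2, among them DESeq2 with all libraries (adjusted p = 0.00614). By TPM within a library, Tcf7l2 made up 20.7% to 76.0% of the 4 factors in OHC libraries and was first in 5 of 6, and 2.61% to 52.9% in IHC libraries, first in 2. Tcf7 was first in 3 IHC libraries and in no OHC library.

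Lef1 and Tcf7l1 did not pass the test. Lef1 was at 0 to 5.56 CPM in IHC libraries and 0.133 to 5.84 in OHC libraries (log2 fold change 0.50, SE 1.26, adjusted p = 0.855, edgeR), and its log2 fold change was -0.12 without OHC replicate 4 and 1.63 without IHC replicate 6. Tcf7l1, mainly a repressor, was at 67.3 CPM in IHC replicate 5, at 2.49 to 8.54 in the other IHC libraries and at 1.19 to 44.9 in OHC libraries, with medians of 7.60 and 10.02 (log2 fold change -0.15, SE 0.81, adjusted p = 0.936). Without IHC replicate 5 the log2 fold change of Tcf7l1 turned to 1.22 (adjusted p = 0.387).

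**Figure D4:**
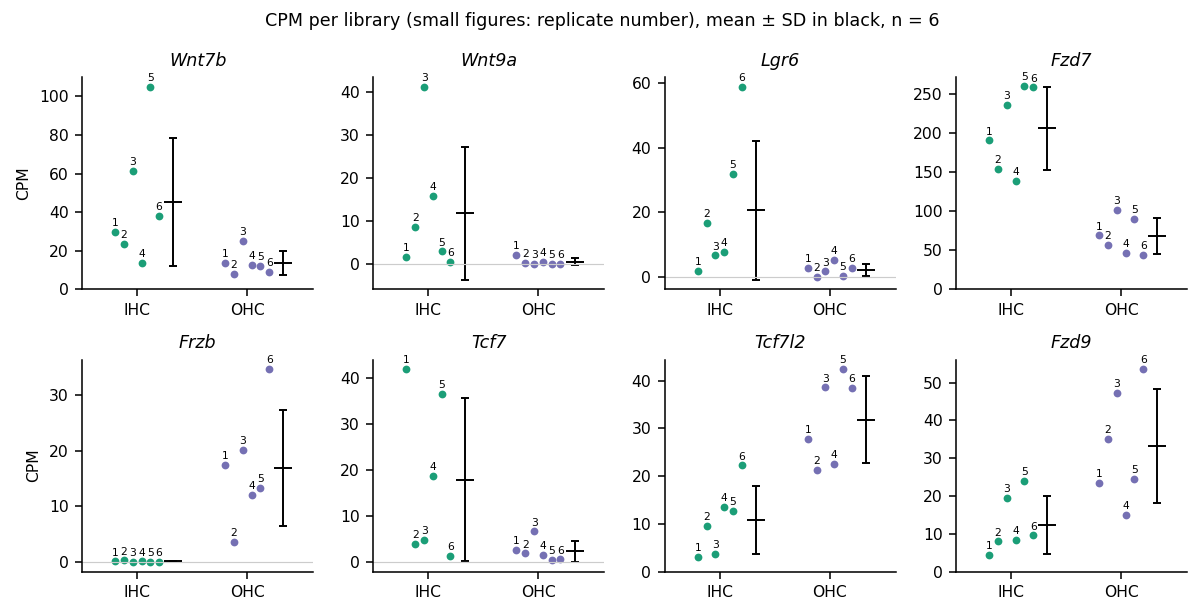
CPM in each library (points, numbered by replicate, linear axis) for the 5 members that passed the test and 3 near it, with the mean ± SD of 6 libraries in black. The cell types do not overlap for Fzd7 and Frzb, and in the Wnt9a, Lgr6 and Tcf7 panels the IHC mean rests on a few high libraries, such as 41.1 CPM of Wnt9a in IHC replicate 3.

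The adjusted p with each library left out separated these members into groups. Frzb and Fzd7 passed in 12 of 12 such fits. Wnt9a passed in 6, Wnt7b in 5 and Lgr6 in 4, and of the members near the threshold Tcf7 passed in 4 and Tcf7l2 and Fzd9 in 1 each. The 16 tested members outside this group and outside Wnt5a, Apc, Axin2, Znrf3, Lrp6 and Dkk3 were called in 0 of 192 such fits.

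**Figure D5:**
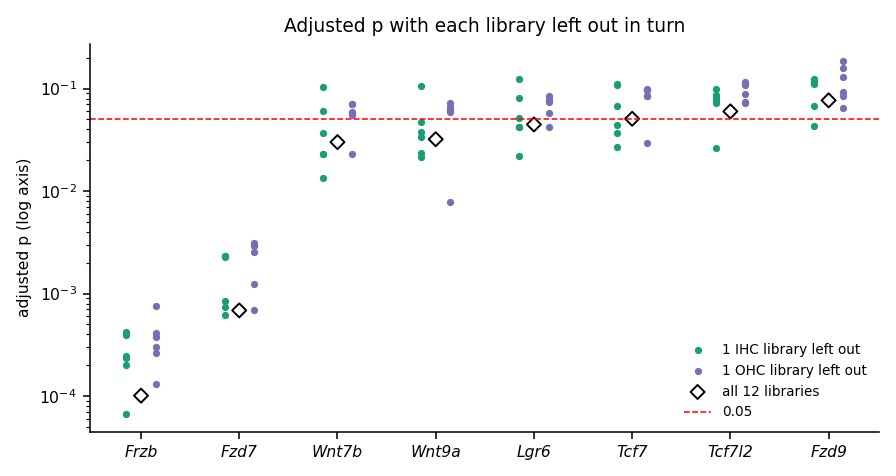
Adjusted p (log axis) of 8 members with all 12 libraries (diamonds) and with each IHC library (green) or OHC library (purple) left out, with a dashed line at 0.05. Frzb and Fzd7 are at most 0.00310 in every fit, while the points of Wnt7b, Wnt9a, Lgr6, Tcf7, Tcf7l2 and Fzd9 lie on both sides of the line.

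Of 61 other genes of the pathway, which are not in the set, 51 were tested. Over all genes tested 6.26% were called, 3.81% as higher in IHCs. Of the 51, 5 were called (9.8%), all higher in IHCs. They were Draxin, a secreted axon guidance protein that also inhibits Wnt signalling, with a log2 fold change of -2.75 (SE 0.30, adjusted p = 7.38e-06), Ccnd1, cyclin D1, at -2.49 (SE 0.52, adjusted p = 0.00578), the Groucho relative Tle5 at -2.01 (SE 0.47, adjusted p = 0.0131), the Dishevelled protein Dvl3 at -1.02 (SE 0.26, adjusted p = 0.0228) and the β-catenin cofactor Bcl9 at -1.02 (SE 0.29, adjusted p = 0.0370), all by edgeR. Ccnd1 shares 48.4% of its exonic bases with a gene on the other strand. With 1 library left out, Dvl3 lost its call without IHC replicate 3 or 5 or OHC replicate 2, 4 or 6 (adjusted p 0.0538 to 0.0596, edgeR) and Bcl9 without IHC replicate 3, 4 or 6 or OHC replicate 1, 2, 5 or 6 (0.0501 to 0.0835), while Draxin, Ccnd1 and Tle5 passed in all 12. None of the 51 was called higher in OHCs, against 2.44% of all genes, and 17 had an unadjusted p under 0.05, against 21.8% of all genes. DESeq2 also tested 51 of the 61, with Sdc1 and Dact2, which edgeR's filter left out, in place of Reck and Sp5. It called 11 of these, 10 of them higher in IHCs. Over all 16911 genes it tested, DESeq2 called 1339 higher in IHCs and 1590 higher in OHCs, together 17.3%. Its call higher in OHCs among the pathway genes was Sdc1 (log2 fold change 6.23, adjusted p = 2.15e-05, DESeq2). Of the core genes of the pathway, β-catenin (Ctnnb1) was not called, at 266 ± 61.7 CPM in IHCs and 272 ± 38.0 in OHCs. The same held for the kinase Gsk3b at 762 ± 152 and 666 ± 68.5 and for Porcn and Wls, needed for ligand secretion, at 6.17 ± 6.87 and 9.77 ± 6.13 and at 6.72 ± 2.68 and 9.72 ± 12.2 CPM (SD, n = 6).

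Some markers of neighbouring cells moved with the IHC-enriched members. Gjb2, Ednrb and Sox2 of the 9 supporting cell markers, and Tecta and Fgf10 of the 3 tested greater epithelial ridge markers, passed as higher in IHCs. Other markers of the same lists had positive log2 fold changes (OHC over IHC) without passing: Fgfr3 at 2.12 (SE 0.69, adjusted p = 0.0722, edgeR, and 0.0331 by DESeq2), Hes5 at 1.32 (SE 0.71), Cdkn1b at 0.02 (SE 0.29) and Otoa at 0.60 (SE 0.71). Gjb2 was at 78.8 to 453 CPM in IHC libraries and 1.74 to 58.3 in OHC libraries, and Tecta at 576 to 1086 and 52.2 to 403. IHC replicate 5, with the highest Wnt7b and Fzd7, had the highest supporting cell sum, 887 CPM, but IHC replicate 3, with the highest Wnt9a, had the lowest IHC sum, 393. The part of these cells in the Fzd7, Wnt7b, Wnt9a and Lgr6 differences was not tested. The summed CPM of the other marker lists in IHC and OHC libraries was 42.97 to 59.4 and 7.18 to 27.4 for 8 mesenchyme markers, 4.19 to 21.0 and 0.109 to 12.3 for 3 pericyte markers, 14.3 to 65.3 and 5.71 to 26.3 for 4 glial markers, and 1.75 to 19.6 and 0.0872 to 5.47 for 6 macrophage markers. Of these, 6 mesenchyme, 1 pericyte, 3 glial and 1 macrophage marker had enough reads for edgeR's test, and none passed. DESeq2 called Col3a1 of the mesenchyme list (log2 fold change -3.18, adjusted p = 0.00666) and C1qb of the macrophage list (-2.20, adjusted p = 0.0443) as higher in IHCs. The 4 neuronal markers summed to 808 to 1494 and 216 to 432. Nefl and Nefm carried this sum, and both were called higher in IHCs. The other neuronal markers were near 0, with at most 5 counts of Neurod1 and 2 of Prph in any library. The 4 erythroid markers summed to at most 0.0613 and 3.20.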

How the data were processed

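RNA-seq of 6 IHC and 6 OHC pools was analysed. The authors deposited raw counts per gene for each library, without normalization. By the study's methods and processing notes, the authors trimmed reads with Trimmomatic, aligned them with STAR in 2 passes to GRCm39 and counted them with HTSeq (intersection-nonempty mode, GENCODE vM27). Tool versions and the strand setting are not given in the sources used here. By the labels, ribosomal RNA was depleted and cDNA was amplified from random primers. Reads carry no molecular identifiers, so counting intervals would cover counting error only, and precision is read from the spread between pools. HTSeq's 5 summary lines were left out of library sizes and tests. Of all reads in these lines and on genes, 9.32% to 15.9% had no feature in IHC libraries and 13.8% to 33.3% in OHC libraries.

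From these counts, IHCs and OHCs were compared with edgeR 4.0.16 under R 4.3.3: low genes were dropped per cell type by filterByExpr (count 10, total 15), followed by TMM, estimateDisp, glmQLFit and glmQLFTest over 13269 genes, Benjamini-Hochberg adjustment over all of them and a threshold of 0.05. Fold changes are OHC over IHC. Alternatives were DESeq2 1.42.0, edgeR's exact test, RLE size factors, other filters, ribosomal RNA genes left out, the replicate number as a block, and each library left out in turn. TPM was computed in Python 3.11.15 (numpy 2.4.6, pandas 2.3.3) with exon lengths of GENCODE vM39, in which 98.8% of the identifiers were found. Gene coordinates and exon overlaps are those of vM39 on GRCm39, and promoter sequences those of RefSeq on GRCm38.p6, and the 2 builds are not compared.

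Groups and replicate numbers come from the sample labels. Values in every library, or their lowest, median and highest, are given for members with an adjusted or unadjusted p under 0.05, for Wnt9a and Axin2, and for the member with the highest mean TPM of each role, other members by range, and untested members by their highest count. Of the other pathway genes, those past the threshold and Ctnnb1, Gsk3b, Porcn and Wls are named. Markers of supporting cells, greater epithelial ridge, mesenchyme, endothelium, pericytes, glia, spiral ganglion neurons, macrophages and erythroid cells were summed. The members and lists were chosen with earlier results of these data known, and no test was run over the list.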

Additional observations from a re-analysis of the deposited data

Results flagged for a closer look

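Dixon's rule sets the gap between an outlying library and its nearest neighbour against the range of the group. Its limit for 6 values is passed in about 1 of 20 groups of normally distributed values. CPM was not transformed and need not be normal, so this rate may not hold here. Among the 17 members that the naming rule selects for values by library, or 34 groups of 6 libraries, 7 groups passed the limit, with 1 library far from the other 5. In IHCs these were Frzb at 0.244 CPM in replicate 2 (the nearest was at 0.0756), Sfrp1 at 652 CPM in replicate 5 (499) and Tcf7l1 at 67.3 CPM in replicate 5 (8.54). In OHCs they were Tcf7 at 6.54 CPM in replicate 3 (2.61), Wnt7b at 25.2 CPM in replicate 3 (13.6), Wnt9a at 2.03 CPM in replicate 1 (0.378) and Znrf3 at 75.4 CPM in replicate 4 (8.99). The widest gap over range was that of Znrf3, 0.972. All 7 were the highest library of their group.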

How the results depend on the processing

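Over all genes, 506 were called higher in IHCs and 324 in OHCs, and the counts were 1339 and 1590 with DESeq2 and 893 and 918 with no filter on low counts, while edgeR's exact test called 519 in OHCs. With 1 library left out they were 369 to 551 and 225 to 402. Of members, 4 and 1 were called. DESeq2 called 6 members higher in OHCs (Frzb, Tcf7l2, Fzd9, Rspo2, Wnt3 and Wnt4), the exact test 3, the fit with the replicate block 2, and the filter of at least 10 counts in every library 0, because Frzb was not tested under it. With 1 library left out, members called were 1 to 5 in IHCs (1 without OHC replicates 2, 5 or 6, 2 without IHC replicate 5 or OHC replicate 1) and 1 to 2 in OHCs (2 without IHC replicate 5 or 6). Of the other pathway genes, 5 were called in IHCs and 0 in OHCs, and these became 10 and 1 with DESeq2 and 3 (without OHC replicate 2) to 5 and 0 to 1 with 1 library left out, and 1 was called in OHCs with no filter. Same-numbered IHC and OHC libraries did not vary together (correlations from -0.03 to 0.02), which does not show whether they came from the same animals. With the replicate block 512 and 391 genes were called and Lgr6 lost its call (adjusted p = 0.117, edgeR). Znrf3 (log2 fold change -2.004, adjusted p = 0.0367, edgeR) and Tcf7l2 (1.80, adjusted p = 0.0458, edgeR) gained one. With this block the log2 fold change of Wnt5a was -0.60 and that of Axin2 0.45. The log2 fold change of Ctnnb1, 0.04 with all libraries, ranged from -0.0632 to 0.129 with 1 left out (negative without IHC replicate 6 or OHC replicate 1 or 4), and that of Wls, 0.53, from -0.447 (without OHC replicate 3) to 0.748, and was -0.19 with the replicate block, with no call in any of these. Mean TPM was higher with ribosomal RNA genes left out of the total, by more than 1 SD for 12 of the values, as for Sfrp1, at 643 in IHCs and 589 in OHCs. For all these but TPM, where the total is smaller, and the filter on Frzb, the cause was not tested. Of the 16 other tested members, none of them called, 8 turned direction with at least 1 library left out (Fzd1, Fzd2, Lef1, Lgr5, Lrp5, Sfrp2, Tcf7l1 and Wnt7a), with no call. Of the alternatives for the remaining fold changes and for TPM, 462 kept direction and side of the threshold, 34 lost their call, 19 gained one and 12 moved.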
